A study of Mus musculus with 6 samples.

Results

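The probes described here are the 16251 non-control probes with names starting A_30_P, the prefix of the long intergenic noncoding RNA (lincRNA) probes in the Agilent mouse catalogue. They made up 10.8% of the 151045 non-control probes on each array. The other probes were 39430 catalogue probes with prefixes A_51 to A_66 and 95364 custom probes. The rule for members uses the name alone and no measured value, but it was set with earlier results of these data known. The files give no gene name, description or mapped position for any A_30 probe, so results are given by probe. The lincRNA label was not checked, and the probe letters were not searched for protein-coding sequence. A probe of this class may therefore read a messenger RNA.

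Bone marrow cells of wild-type BALB/c mice were grown into macrophages for 7 days in 20% serum and 20% supernatant of L929 cells, and then rested for 24 h. M1 cells then received lipopolysaccharide (LPS) at 100 ng/mL with interferon-γ at 20 ng/mL for 48 h, and M2 cells received interleukin-4 (IL-4) at 20 ng/mL for 48 h. Each group had 3 arrays from different mice. No unstimulated cells were arrayed, so the data compare the 2 states with each other and with no resting level. Macrophage markers were not looked up, since no probe carries a gene name. In bulk RNA, fewer cells that make a transcript and less RNA per cell cannot be told apart.

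LincRNAs are long transcripts without a protein product, read from stretches between protein-coding genes. Many are spliced and polyadenylated like messenger RNA, but they are usually less abundant and more restricted to particular cell types. LPS with interferon-γ drives the inflammatory programme of macrophages and IL-4 the alternative programme, and noncoding transcripts are among the RNAs that inflammatory signals induce. Since the genome can be transcribed on either strand, a probe and a probe with the complementary letters can read different RNAs from the same place.

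All A_30 probes were 60 nt long, and 3 sets of sequences carry the results. The first is a set of 5 probes, all called higher in M1. A_30_P01020928, A_30_P01033227 and A_30_P01018526 share letters across strands, and so, separately, do A_30_P01017643 and A_30_P01028762. Capitals mark the letters of each that are the reverse complement of a neighbour in its own group.
A_30_P01020928: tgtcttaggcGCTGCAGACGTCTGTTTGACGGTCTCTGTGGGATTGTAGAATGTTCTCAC
A_30_P01033227: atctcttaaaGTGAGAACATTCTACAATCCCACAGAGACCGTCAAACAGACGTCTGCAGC
A_30_P01018526: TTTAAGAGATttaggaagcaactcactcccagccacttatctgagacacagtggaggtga
A_30_P01017643: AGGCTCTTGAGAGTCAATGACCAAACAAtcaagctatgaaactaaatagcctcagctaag
A_30_P01028762: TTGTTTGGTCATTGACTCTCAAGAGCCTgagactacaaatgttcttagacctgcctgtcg

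A_30_P01020928 and A_30_P01033227 overlapped by 50 nt on opposite strands, and A_30_P01017643 and A_30_P01028762 by 28 nt. The 10 letters in capitals in A_30_P01018526 are the reverse complement of the 10 letters in small type at the start of A_30_P01033227. No other A_30 probe began or ended with that complement. A_30_P01020928 ends where A_30_P01018526 begins on this reading, but 10 letters are a short match and no genome of the design's build was used to place them.

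The second set holds probes higher in M2. A_30_P01031631 and A_30_P01018977 had the largest differences among those measured on all arrays. A_30_P01027687 and A_30_P01018926 overlapped by 49 nt on the same strand (capitals).
A_30_P01031631: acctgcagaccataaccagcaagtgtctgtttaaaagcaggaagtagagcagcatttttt
A_30_P01018977: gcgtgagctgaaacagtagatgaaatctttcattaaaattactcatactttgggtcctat
A_30_P01027687: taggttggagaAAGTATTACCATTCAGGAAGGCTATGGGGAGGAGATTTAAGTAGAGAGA
A_30_P01018926: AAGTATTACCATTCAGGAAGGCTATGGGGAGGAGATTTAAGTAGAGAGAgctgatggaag

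The third set shows pairs in which a probe differed between M1 and M2 and the probe for the other strand of the same place was not called. Capitals mark the shared stretch, of 52 nt in the first pair and 46 nt in the second.
A_30_P01026993: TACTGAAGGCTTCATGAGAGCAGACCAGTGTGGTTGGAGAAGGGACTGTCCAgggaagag
A_30_P01032282: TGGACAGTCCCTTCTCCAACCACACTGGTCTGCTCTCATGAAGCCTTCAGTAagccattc
A_30_P01023262: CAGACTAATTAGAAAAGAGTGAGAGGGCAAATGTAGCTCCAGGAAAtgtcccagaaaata
A_30_P01027338: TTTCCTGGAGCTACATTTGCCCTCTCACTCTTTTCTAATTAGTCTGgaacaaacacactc

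Replicate 3 of both groups stood apart from replicates 1 and 2. Over the tested A_30 probes, Pearson's r across probes was 0.993 for M1 replicate 1 with M1 replicate 2, and 0.99005 for the same pair in M2. It was 0.966 to 0.974 for replicate 3 against its own group and 0.948 to 0.976 between groups; probes are not independent replicates. Replicate 3 of both groups lay more than 2-fold below the other arrays of their group at 155 A_30 probes (1.92%) and more than 2-fold above at 10 (0.124%). The shares below and above were 1.03% and 0.520% among other catalogue probes, and 5.22% and 0.258% among custom probes. The arrays lay on 2 slides, with the 3 M1 arrays and M2 replicate 1 on slide 1 and M2 replicates 2 and 3 on slide 2. Slide and group are thus partly confounded.

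About as many A_30 probes were detected in M1 as in M2 cells, and clearly fewer than of the other catalogue probes. A probe counted as detected when Feature Extraction marked its spot well above background. In M1 replicates 1, 2 and 3, 56.7%, 53.9% and 48.4% of A_30 probes were detected. In M2 replicates 1, 2 and 3 it was 52.1%, 58.4% and 51.7%, so the groups overlapped. The M1 mean was 52.99% ± 4.20 (SD, n = 3) and the M2 mean 54.0% ± 3.75 (SD, n = 3), and the difference of -1.05 percentage points was within the spread between arrays (exact permutation test, two-sided, p = 0.9, adjusted over 3 probe classes 0.9; the smallest p for this design is 0.1). Its sign turned without M1 replicate 3, at 1.24, and without M2 replicate 2, at 1.11. No spot was saturated.

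Over the 6 arrays, 53.5% ± 3.61 (SD, n = 6) of A_30 probes were detected, against 66.9% ± 1.94 (SD, n = 6) of the other catalogue probes. The A_30 share was lower on 6 of 6 arrays, with a mean difference of -13.3 percentage points and single arrays between -15.7 and -11.0 (exact sign-flip permutation test, two-sided, p = 0.03125, adjusted over 2 comparisons 0.03125, the smallest value 6 arrays allow). The custom probes were detected at 52.7% ± 4.27 (SD, n = 6). The A_30 share was above it on 6 of 6 arrays, but by only 0.81 points on average (0.054 to 2.05; exact sign-flip permutation p = 0.03125).

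That small excess over the custom probes turned round among probes of like base composition, except below 35% GC, where 27.0% of A_30 and 22.7% of custom probes were detected. A_30 probes had a mean GC content of 44.1% ± 7.74 (SD over probes), the other catalogue probes 42.1% and the custom probes 41.2%. Detection of A_30 probes rose with GC content, from 27.0% ± 3.15 (SD, n = 6) under 35% GC to 75% ± 3.10 (SD, n = 6) at 50% GC and over. Between those ends it was 40.1%, 50.1% and 54.0% at 35 to 40, 40 to 45 and 45 to 50% GC. In the 4 bins from 35% GC upward the A_30 share was below the custom share, with differences of -5.41, -4.24, -2.83 and -3.99 points in rising order of GC (each exact sign-flip permutation p = 0.03125). Against the other catalogue probes the A_30 share was lower on 6 of 6 arrays in every bin; 53.5%, 60.8%, 65.7%, 69.0% and 80.5% of those were detected in rising order of GC.

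Single A_30 probes were mostly detected everywhere or nowhere. On all 6 arrays 7212 probes (44.4%) were detected, on none 5889 (36.2%), and on some 3150 (19.4%). Among the other catalogue probes 61.0% were detected on all 6 arrays and 26.5% on none. The custom probes were close to the A_30 probes, with 42.8% on all 6 arrays, 37.1% on none and 20.1% on some. The A_30 probes detected on all arrays had a mean GC content of 46.4%, against 41.5% for those detected on none, and held more C (24.5% against 19.3%) and less A (25.03% against 31.1%). Their G content was close, at 21.9% and 22.2%. Short tandem repeats were found in 31 A_30 probes, of which 22 were detected on all 6 arrays.

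The A_30 probes were dim as a class, and the custom probes were about as dim. Signals are given as scaled log2 signal, the log2 of the processed signal minus the 75th percentile of all non-control probes of that array, so 0 is that percentile's own level. The A_30 median was -3.31, -3.35 and -3.34 on M1 arrays 1 to 3 and -3.33, -3.18 and -3.28 on M2 arrays 1 to 3. It lay below the median of the other catalogue probes on each of the 6 arrays, with gaps of -2.28 to -2.04 and a mean gap of -2.19 ± 0.09 (SD, n = 6). The custom median was -3.30, -3.34 and -3.55 on M1 arrays 1 to 3 and -3.30, -3.18 and -3.48 on M2 arrays 1 to 3. These levels are a description without a test, because different probes bind their targets differently. The brightest 5% of A_30 probes began at 2.70 to 3.01 on the scaled log2 scale. For the other catalogue probes this was 6.64 to 7.14, and for the custom probes 3.07 to 3.36.

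A few A_30 probes were nevertheless among the brightest spots of the arrays. A_30_P01020015 ranked 105th of all non-control probes by mean scaled log2 signal, with 10.26, 10.32 and 10.76 in M1 and 10.31, 10.02 and 10.50 in M2 replicates 1 to 3. A_30_P01032016, A_30_P01031448, A_30_P01030669 and A_30_P01027833 ranked 131st, 149th, 260th and 282nd. Both groups overlapped for each of these 5 probes, with M1 minus M2 differences from -0.04 to 0.21 on the log2 scale, and none was called. Their GC contents were 75%, 78.3%, 83.3%, 50% and 60%.

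Comparing M1 with M2, 191 A_30 probes differed, 131 higher in M1 and 60 higher in M2. A probe was tested when detected on every array of M1, of M2 or of both, which admitted 8079 A_30 probes (49.7%) and left out 8172, so the counts are not over all members. It was called at an adjusted p by limma under 0.05, over all probes tested, provided that the fitted change was 2-fold or more. The called share was 2.36% of tested A_30 probes, below the background of 3.82% for all tested probes. By direction 1.62% were higher in M1 and 0.743% in M2, where the background was 2.03% and 1.79%. Of the other catalogue probes tested 5.27% were called, and of the custom probes 3.28%. Without the fold threshold 231 A_30 probes passed (2.86%; background 4.52%).

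In the main setting the calls leaned towards M1 more than in the other classes. Of the A_30 calls 68.6% were higher in M1, against 58.1% of the 1349 calls among other catalogue probes and 46.8% of the 1513 among custom probes. These shares are a description, since probes of a class are not replicates. Over the alternative settings the A_30 share higher in M1 ran from 58.97% (without M2 replicate 3) to 74.1%. The shares of the other classes under those settings are not given, so the comparison is shown for the main setting only. M1 and M2 were fully separate in 1536 tested A_30 probes (19.01%; background 24.9%), among them all 191 called.

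The count depended on single arrays and on the slide. It was 88 without M1 replicate 1, M1 replicate 2 or M2 replicate 1, and 67 without M2 replicate 2, but 193 without M1 replicate 3 and 195 without M2 replicate 3. With replicate 3 of both groups left out it was 392. With the replicate number as a block, 269 probes were called, of which 95 instead of 60 were higher in M2. With the slide as a block 23 were called. Slide 2 held only M2 arrays, so the difference in this fit was the M1 mean minus M2 replicate 1 alone. All 191 main calls kept their sign there, which was fixed in advance, since their groups were fully separate. The median SE of tested A_30 probes was 0.322, against 0.225 in the main fit. In the same contrast, within slide 1, 172 of the 191 were at least 2-fold apart. M2 replicate 1 had itself entered the calls, so these values are no independent check on the slide.

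As a whole, tested A_30 probes differed little between M1 and M2. The median M1 minus M2 difference was -0.031 on the log2 scale (quartiles -0.227 and 0.167), against 0.043 for other catalogue and -0.017 for custom probes. Its sign varied with the scaling. On each array the median of tested A_30 probes lay below that of tested other catalogue probes, with an M1 gap of -2.48 ± 0.04 (SD, n = 3) and an M2 gap of -2.38 ± 0.08 (SD, n = 3). The groups did not overlap, and the difference of -0.10 had the smallest p that 3 against 3 arrays allow (exact permutation test, two-sided, p = 0.1, adjusted 0.2). Against the custom probes the same difference was 0.02 (exact permutation p = 0.6, adjusted 0.6).

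The called share was also below that of other catalogue probes at like signal, in all 7 bands of mean signal. Among tested probes with a mean scaled log2 signal between -1 and 0, 2.76% of A_30 and 4.67% of other catalogue probes were called. Between 1 and 2 the shares were 2.58% and 5.38%, and at 2 and over 2.33% and 5.30%. In the band from -1 to 0 the median SD within groups was 0.26 for A_30 and 0.25 for other catalogue probes on the log2 scale. Only 14.3% of tested A_30 probes had a mean of 2 or over, against 44.9% of the others.

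Called probes fell into patterns of detection. Of the 191, 126 were detected on all 6 arrays, 94 of them in favour of M1 and 32 of M2, with a median absolute difference of 1.41 (log2). Another 21 were detected on every M1 array and no M2 array, and 17 on every M2 array and no M1 array. For these any fold is a lower bound in the main setting. It sets the bright group's mean against a floor, taken per array as the dimmest signal still marked well above background, or the probe's own signal where that was higher. The bound reached 2-fold in 15 of the 21 probes and in 13 of the 17. The bounds do not hold in every alternative setting. For the 5 highest bounds in M1 the smallest fitted difference over the alternatives was 0.77 to 1.95 (log2). For the 5 highest in M2 it was -0.96 to -0.62, which is under 2-fold. Probes detected in 1 group alone passed the detection filter only through the group where they were high, so their counts and p-values are not independent of that filter. The remaining 27 were detected on only some arrays of a group.

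The largest difference among probes detected on all 6 arrays was that of A_30_P01017643. Its scaled log2 signal was 1.75, 1.75 and 1.63 in M1 replicates 1 to 3 and -2.08, -2.16 and -2.53 in M2 replicates 1 to 3. All M1 arrays lay far above all M2 arrays, with an M1 minus M2 difference of 3.96 (SE 0.18, adjusted p by limma = 0.00034), or 15.6-fold. Normexp background correction added an offset of 50 signal units, while the median processed A_30 signal was 10.4 to 21.1 on the single arrays. With it this probe's difference was 2.56. That setting lowered the fold of 31 of the 36 named calls by more than 1.5 times, A_30_P01033227 among them, whose fitted difference went from 3.74 to 1.35. A_30_P01028762, which shares its first 28 letters on the other strand, gave -0.42, -0.85 and -0.51 in M1 against -3.38, -3.29 and -3.20 in M2, a difference of 2.69 (SE 0.18, adjusted p by limma = 0.000806). The probes for both strands were thus higher in M1, at different levels. Whether both strands were transcribed was not tested. Both calls held in all 21 alternative settings, the slide block included (adjusted p = 0.0164 and 0.0276).

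A_30_P01020928 had 0.88, 0.59 and 0.64 in M1 and -2.40, -2.65 and -2.64 in M2. Its difference was 3.27 (SE 0.17, adjusted p by limma = 0.000529). The opposite-strand probe A_30_P01033227 was detected on the M1 arrays, at -0.43, -0.86 and -0.40, but on no M2 array. In the main setting it was higher in M1 by a factor of at least 9.16 (adjusted p by limma = 0.000563). A_30_P01018526, joined to it by the 10 letters, had 1.19, 1.23 and 1.26 in M1 and -1.71, -1.38 and -1.09 in M2, a difference of 2.62 (SE 0.20, adjusted p by limma = 0.00113). The groups were fully separate for each of the 3 probes, and each was called with the slide block. A_30_P01024571, which overlaps A_30_P01018526 by 50 nt on the opposite strand, had 1.34, 1.26 and 1.80 in M1 against 0.45, 0.66 and 0.87 in M2. It was not called, with a difference of 0.81 (SE 0.21, adjusted p by limma = 0.0917).

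A_30_P01032196 shared no stretch of 20 nt or more with another called A_30 probe. It had 2.83, 2.48 and 2.38 in M1 against -0.90, -1.04 and -1.31 in M2, a difference of 3.64 (SE 0.20, adjusted p by limma = 0.000563). Also among the 10 largest were A_30_P01024637 (3.11), A_30_P01029585 (2.87) and A_30_P01028770 (2.45), each with separate groups. Their calls were lost with the slide block (adjusted p = 0.107, 0.0751 and 0.154). The last of the 10 were A_30_P01022435 (2.62) and A_30_P01031585 (2.44), whose calls held in only 10 and 9 of 21 alternatives. In the first, M1 replicate 3 lay at -0.13 beside 1.56 and 1.46. In the second, M2 replicate 3 lay at -2.07 beside -0.33 and -0.52, and the call was lost with the replicate block (adjusted p = 0.066).

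Among probes detected in M1 alone, A_30_P01029181 had the highest bound, at least 14.5-fold (adjusted p by limma = 0.0169). Its M1 arrays were uneven, at -1.01, -1.09 and 2.39, so replicate 3 set the bound, and the call held in 13 of 20 alternatives. A_30_P01021500 was more even, with -0.75, -1.02 and -0.67 in M1, and at least 7.71-fold higher there (adjusted p by limma = 0.0022). A_30_P01028475 had -0.75, -1.09 and -1.12 in M1, a level at least 6.84-fold above M2 (adjusted p by limma = 0.000684). A_30_P01022668 had -1.80, -1.56 and -1.43 in M1, at least 4.48-fold above M2 (adjusted p by limma = 0.00228). The probe for its other strand, A_30_P01027033, overlaps it by 46 nt and was detected on no array of either group.

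Among probes higher in M2 and detected on all 6 arrays, A_30_P01031631 had the largest difference. Its values were -1.41, -0.93 and -2.86 in M1 and 1.25, 1.25 and 1.90 in M2, giving an M1 minus M2 difference of -3.20 (SE 0.49, adjusted p by limma = 0.0148). The groups were separate, but the M1 arrays were spread and the call held in 14 of 21 alternatives; with the slide block the adjusted p was 0.224. A_30_P01018977 had -3.002, -2.79 and -3.26 in M1 against -0.09, -0.33 and 0.46 in M2, a difference of -3.03 (SE 0.25, adjusted p by limma = 0.00155). Its call held in all 21 alternatives. A custom probe sharing 57 nt on the same strand was also called, at -3.63.

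A_30_P01018083 had 0.43, 0.64 and 0.23 in M1 and 2.54, 2.71 and 3.92 in M2, a difference of -2.63 (SE 0.37, adjusted p by limma = 0.0108). It lost its call with the slide block (adjusted p = 0.188). A_30_P01029486 (-2.42) and A_30_P01020629 (-2.11) were called in all 21 alternatives. A_30_P01020629 had 1.13, 1.101 and 1.26 in M1 and 3.25, 3.12 and 3.45 in M2. The other 5 of the 10 largest, A_30_P01022866, A_30_P01021339, A_30_P01020420, A_30_P01017550 and A_30_P01030527, had differences from -2.51 to -2.19 with separate groups, and none was called with the slide block.

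Among probes detected in M2 alone, A_30_P01021337 had -1.73, -1.52 and -0.92 on the M2 arrays and was at least 5.09-fold higher there (adjusted p by limma = 0.000739). The same-strand probes A_30_P01027687 and A_30_P01018926 share most of their letters. The former had -1.45, -1.40 and -2.01 in M2 and the latter -1.52, -1.63 and -2.18, and they were at least 4.33-fold and 3.90-fold higher in M2 (adjusted p by limma = 0.00404 and 0.00153). Both were lower in M2 replicate 3 than in replicates 1 and 2. With the slide block the former lost its call (adjusted p = 0.0701) and the latter kept it (adjusted p = 0.0306). A_30_P01026293 and A_30_P01030334 were at least 4.17-fold and 3.85-fold higher in M2 (adjusted p by limma = 0.0134 and 0.00268). Both lost their calls with the slide block (adjusted p = 0.137 and 0.071), and the former held in 13 of 20 alternatives.

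Probes that read the same strand of the same place gave repeat measurements within an array. In 418 pairs an A_30 probe had the same 60 letters as another probe on the array. In the 178 pairs with both probes detected on all 6 arrays, the median gap in scaled log2 signal was 0.083, and no gap was over 1. Of 342 pairs of A_30 probes overlapping by at least 30 nt on the same strand, 54.7% had both probes on all 6 arrays and 4.09% had one on all and the other on none. Across the 208 tested pairs the M1 minus M2 differences had r = 0.845; probes of a pair share arrays and letters, so this is a description. A_30_P01026716, for instance, differed by 1.98, a second catalogue probe for the same place by 2.00 and a custom probe by 2.04.

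Identical letters did not always agree at low signal. A_30_P01026236 was detected on all M1 arrays, at -3.42, -2.45 and -2.78, and was called. The custom spot with the same 60 letters was detected on no array and gave -5.47, -5.45 and -3.81 in M1. A_30_P01031863 was likewise called from M1 values of -2.31, -1.95 and -2.51, while its custom twin was detected on no array, at -4.37, -4.31 and -5.60. In all, 6 called A_30 probes had a spot with the same letters elsewhere on the array, and that spot was called in 2 of them. It was not tested in 2, those just given. For A_30_P01018414 (1.41) and A_30_P01030356 (-3.27) it differed in the same direction, by 0.99 and -3.10, without a call (adjusted p by limma = 0.143 and 0.071). Over all 418 pairs the median gap over the 6 arrays exceeded 1 in 10.

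Probes for both strands of a place formed 1772 pairs of A_30 probes overlapping by at least 30 nt in opposite directions. Whether the labelled product kept the strand of the RNA was not tested. Both probes were detected on all 6 arrays in 23.3% of these pairs, and in 26.9% one was detected on all 6 and the other on none. The latter share was 4.09% among same-strand pairs. Among 101 pairs that were exact reverse complements over all 60 nt, which have equal GC content, it was 32.7%. Taken singly, 44.4% of all A_30 probes were detected on all 6 arrays and 36.2% on none. No share for unrelated pairs of A_30 probes is set beside these values. Across the 503 tested opposite-strand pairs the differences between M1 and M2 had r = 0.314, also a description. At least 1 probe was called in 15 of those pairs, and both were called in 5, each time in the same direction. Over the 31 tested pairs of exact reverse complements r was -0.154, and no probe was called. Opposite-strand pairs of an A_30 probe with a probe of another class had higher values. With other catalogue probes r was 0.744 over 45 tested pairs, and 57.3% of 75 pairs had both probes on all 6 arrays. With custom probes r was 0.514 over 82 tested pairs, and 32.9% of 219 pairs had both on all 6 arrays.

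In the pair placed near 4933433H22Rik, a lncRNA gene, the probe for one strand was called and the probe for the other was not. A_30_P01026993 lies at chr17:84078462-84078521 on the minus strand and A_30_P01032282 at chr17:84078470-84078529 on the plus strand (RefSeq, GRCm38.p6). Both lie upstream of the annotated start and the second carries the gene's own strand. A_30_P01026993 had -0.75, -1.28 and -0.20 in M1 and -3.29, -2.70 and -3.92 in M2, a difference of 2.56 (SE 0.38, adjusted p by limma = 0.014). It was detected on 5 of 6 arrays and lost its call with the slide block (adjusted p = 0.195). A_30_P01032282 was detected on all 6 arrays, with 0.40, 0.40 and 0.92 in M1 and 0.30, 0.33 and 0.89 in M2, and differed by 0.07 (SE 0.24, adjusted p by limma = 0.935).

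Other strand pairs were alike in form. A_30_P01023262 was detected in M1 alone, at -2.87, -2.59 and -2.48, and was at least 2.17-fold higher there (adjusted p by limma = 0.000806). Its opposite-strand partner A_30_P01027338 was brighter, at -0.22, -0.40 and -0.22 in M1 and -0.39, -0.14 and 0.12 in M2, with overlapping groups and a difference of -0.14 (SE 0.19, adjusted p by limma = 0.798). A_30_P01028770 differed by 2.45 (SE 0.32, adjusted p by limma = 0.00817) and its partner A_30_P01028962 by 0.11 (SE 0.21, adjusted p by limma = 0.873). A_30_P01020139 was at least 3.04-fold higher in M1 (adjusted p by limma = 0.0288), on M1 values of -2.29, -3.21 and -0.97. Its call held in 11 of 20 alternatives and was lost with the slide block (adjusted p = 0.368). Its partner A_30_P01020197 differed by -0.28 (adjusted p by limma = 0.642). The difference between the strands of a pair was not itself tested.

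Because members share places, the 191 calls are not 191 separate transcripts. Joining A_30 probes that overlap by at least 20 nt on either strand, directly or through another probe, put the calls into 179 groups. Of these, 12 held 2 calls each and none held calls in both directions. With overlaps of at least 30 nt there were 184 groups, of which 7 held 2 calls. Besides the pairs above, A_30_P01018863 and A_30_P01021075 were both detected in M1 alone. A_30_P01029697 and A_30_P01017482 differed by 1.47 and 1.52 at very different levels, with M1 values of 2.66, 2.79 and 3.24 for the former and 6.38, 6.34 and 6.83 for the latter.

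Matching probe letters to the RefSeq windows around gene starts (250 nt before to 50 nt after, GRCm38.p6) placed 170 A_30 probes (1.05%) beside 105 genes. Of these genes 51 are lncRNA genes and 54 protein-coding. The same match placed 0.614% of other catalogue and 0.684% of custom probes. Of the 170, 84 carried the gene's strand and 90 the opposite strand, with 4 in both counts since they fell beside genes of both strands. Detected on all 6 arrays were 54 of the 90 opposite-strand and 40 of the 84 same-strand probes. These windows cover a small part of the genome, and a match does not say which RNA the probe read.

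Of the 99 placed probes that were tested, 5 were called (5.05%; background 3.82%), the probe near 4933433H22Rik among them. A_30_P01024637, higher in M1 by 3.11 (SE 0.37, adjusted p by limma = 0.00597), lies at chr1:136683414-136683473, at -215 to -156 nt from the start of the lncRNA gene Gm19705 and on its strand. It had 0.26, 0.10 and 1.39 in M1 and -2.57, -2.85 and -2.16 in M2. A_30_P01030868, higher in M1 by 2.37 (SE 0.39, adjusted p by limma = 0.0209), matches 3 overlapping positions on chromosome 17 at the start of the lncRNA gene Gm36117. Its letters are a tandem repeat with a period of 24 nt, and its call held in 11 of 21 alternatives. It had -0.14, -0.09 and -1.33 in M1 and -2.49, -2.77 and -3.41 in M2.

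The other 2 placed calls were higher in M2. A_30_P01019830, at chrX:52744667-52744726 on the strand opposite to the lncRNA gene Kis2 and upstream of its start, had 1.25, 1.19 and 1.54 in M1 against 2.72, 2.51 and 2.91 in M2. Its difference was -1.39 (SE 0.19, adjusted p by limma = 0.00923), and the call was lost with the slide block (adjusted p = 0.159). A_30_P01031275, at chrX:52744581-52744640 on the same strand, differed by -0.16 (adjusted p by limma = 0.789), so of these neighbours on one strand the former was called and the latter was not. A_30_P01017948, at chr12:75669533-75669592, lies upstream of the lncRNA gene Gm34717 on its strand and crosses the start of Wdr89 on the other strand. It had 3.01, 3.27 and 3.27 in M1 and 4.23, 4.23 and 4.11 in M2, a difference of -1.01 (SE 0.16, adjusted p by limma = 0.0169). This lies at the edge of the 2-fold threshold, and the call held in 9 of 21 alternatives.

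Placed probes near well-known lncRNA genes were detected without a called difference. Gas5 is a noncoding host gene of small nucleolar RNAs that accumulates in growth-arrested cells. A_30_P01032943, A_30_P01026655 and A_30_P01029558 lie end to end upstream of its start on its strand, at chr1:161034955-161035134. The first had -1.20, -1.22 and -0.85 in M1 and -0.78, -1.02 and -0.64 in M2, and the M1 minus M2 differences of the 3 were -0.28, -0.17 and -0.11 (adjusted p by limma = 0.553, 0.789 and 0.924). Tug1, a widely expressed lncRNA, had a probe on each strand upstream of its start. A_30_P01023757 on its strand and A_30_P01022792 on the other differed by -0.24 and -0.02 (adjusted p by limma = 0.651 and 0.982). Probes that contain part of a RefSeq microRNA hairpin numbered 4, for Mir8120, Mir101a, Mirlet7i and Mir92-2, and none was detected on more than 1 array.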

How the data were processed

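Per the labels' protocols, RNA was amplified with a whole-transcript kit, labelled with Cy3 and hybridised to 1-colour Agilent arrays. Per the file headers, the deposited intensity of each spot comes from Feature Extraction 10.7.1.1 and is background-subtracted and detrended per array and not normalized between arrays. A further table of log2 values deposited by the authors lists 0 A_30 probes and was not used. The members, lists and tests were chosen with earlier results of these data known.

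Control and outlier-marked spots were left out. The log2 processed signal was scaled by each array's 75th percentile over non-control probes. The M1 arrays were compared with the M2 arrays in limma 3.58.1 (lmFit, eBayes; R 4.3.3) over 79834 tested probes of all classes, with Benjamini-Hochberg adjustment. Named probes were, in each direction, the 10 largest calls detected on all 6 arrays without overlap and the 5 highest bounds, then the 5 brightest, up to 10 calls overlapping another A_30 probe. Calls placed by a RefSeq match were added after the match was seen. Probes named beside them, among them partners, neighbours and the pair sharing 28 nt, were chosen after their values were seen.

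Over 79673 probes, M1 and M2 arrays of equal number deviated together from their group means (r = 0.339, 0.308 and 0.477), so they were taken as pairs in the block. M1 replicate 1 with M2 replicate 2 reached 0.412, so replicates 1 and 2 are not told apart. The labels do not say whether equal numbers mark one mouse. On simulated data with 200 changed A_30 probes, the fit found 171 (85.5%) when the simulated log2 change was 3, beside 7 false calls. It found 0 when the change was 1.5. No other of the 79834 probes changed there, against 3053 called in the data, so the Benjamini-Hochberg adjustment was stricter. The A_30 calls in the data had a median absolute difference of 1.56. Smaller differences can still be missed, but the simulation does not give their share in these data. Alternatives covered scaling, background, filters, prior, threshold, blocks, slide and arrays left out; the number of arrays limits the precision.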

Additional observations from a re-analysis of the deposited data

How the results depend on the processing

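The count of called A_30 probes (191: 131 higher in M1, 60 higher in M2) was within 1.5 times under the replicate block (269) and 8 other settings. Outside that range it was 38 (24 and 14) with replicates 1 and 2 averaged, 23 (16 and 7) with the slide block, 32 (20 and 12) with limma's treat, 97 (60 and 37) without a filter and 101 (67 and 34) with normexp. It was 331 (229 and 102) with the replicate block and GC correction, and 392 (242 and 150) with replicate 3 of both groups left out. Leaving out single arrays gave 67 to 195 calls, 42 to 127 higher in M1 and 25 to 80 higher in M2. The count higher in M2 alone also moved to 95 with the replicate block, 35 with detection required on all 6 arrays and 36 with scaling to spike-ins. The ratio of the A_30 called share to that of other catalogue probes was 0.449 and moved to 0.272 with normexp.

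Of the 36 named calls none reversed. With the slide block 15 held, and the replicate block ended the call of A_30_P01031585 and of no other. The detection difference between M1 and M2 (-1.05) ran from -2.89 to 1.24 with single arrays left out and reversed without M1 replicate 3 (1.24, p = 0.6) and without M2 replicate 2 (1.11, p = 0.7; exact permutation tests). Detection against custom probes reversed in the GC bins from 35% upward (-5.41, -4.24, -2.83 and -3.99) and was 0.62 (exact sign-flip permutation p = 0.3125) by the 99th percentile of negative controls. With overlaps of at least 20 nt, chosen after seeing the data, the share of opposite-strand pairs detected on one strand was 25.8%. For these changes the cause was not tested. The authors' value table was not run, since it lists 0 of these probes. Signal over background also limits the results: 8172 A_30 probes were not tested.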
